A study of Mus musculus with 2 samples.

Results

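Spiny projection neurons are the GABAergic output neurons of the striatum. The nuclei described here were chosen by their own UMI counts (unique molecular identifiers, 1 per captured RNA molecule). A nucleus needed 300 to 7000 detected genes and at least 2000 UMIs, with at least 15 UMIs of Pde10a, at least 3 of Rgs9 and at least 1 of Gad1 and Gad2 together. It could hold at most 2 UMIs of Baiap3, 5 of Adarb2, 2 of Slc17a7 and Slc17a6 together, and 5 of Mobp and St18 together. The rule found 161 nuclei among 30413, of which 67 came from the Normal library and 94 from the SAH library.

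Spiny projection neurons fall into 2 main populations. Neurons of the direct pathway carry the dopamine receptor Drd1, which stimulates cyclic AMP synthesis, together with the peptide precursors Tac1 (substance P) and Pdyn (dynorphin). Neurons of the indirect pathway carry the dopamine receptor Drd2, which inhibits cyclic AMP synthesis, together with the adenosine receptor Adora2a and the enkephalin precursor Penk. Both populations use GABA, made by the enzymes Gad1 and Gad2, and both break down cyclic nucleotides with the phosphodiesterase Pde10a and end G protein signals with Rgs9.

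The study collected nuclei from the ipsilateral hemisphere of male C57BL/6J mice, aged 6 to 8 weeks by the labels (the paper's methods give an older range), between bregma 2.34 mm and -2.18 mm. One library came from mice killed 12 h after subarachnoid haemorrhage (SAH), which was induced by endovascular perforation of an artery. The other came from mice that the labels call normal and the paper calls sham-operated, so whether the controls were operated on is not settled. Each library pooled the tissue of 3 mice, so no value here separates one mouse from another, and with 1 library per condition no test between conditions was run. Brackets below hold 95% intervals. They are exact Poisson intervals for levels and exact binomial intervals otherwise, and they reflect counting error alone.

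The Normal library held 12204 nuclei and 114970719 UMIs, and the SAH library 18209 nuclei and 172604358 UMIs. The numbers of control and of SAH nuclei stated by the study each exceed the barcodes of the library labelled Normal, so an exchange of the labels alone would not remove the mismatch. Its source could not be settled, and every ratio of SAH over Normal below takes its direction from the labels. The chosen nuclei made up 0.668% [0.518, 0.847] of the 10035 Normal nuclei within the limits on genes and UMIs, and 0.615% [0.497, 0.752] of the 15287 SAH nuclei. These intervals overlapped. The median chosen nucleus held 13149 UMIs and 3726 genes in Normal and 12840 UMIs and 3462 genes in SAH. In total the chosen nuclei carried 925510 UMIs in Normal and 1252600 in SAH. Their median share of mitochondrial UMIs was 0.0536% in Normal and 0.0339% in SAH, and no chosen nucleus exceeded 0.779%. The libraries shared 78 cell barcodes, and 1 chosen Normal nucleus and 0 chosen SAH nuclei carried such a barcode.

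The genes of the rule are given as a description only, because they chose the nuclei. Levels are UMIs of a gene per 1000000 UMIs of the group (CPM). Pde10a lay at 2679 CPM [2574, 2786] in Normal and 2880 [2787, 2976] in SAH, and single nuclei held 15 to 105 UMIs of it. Rgs9 lay at 548 CPM [501, 598] and 530 [491, 572]. Gad1 lay at 151 and 117 CPM, and Gad2 at 233 and 224 CPM. Just inside the threshold, 10 Normal and 10 SAH nuclei had 15 to 19 UMIs of Pde10a, and just outside it 9 Normal and 16 SAH nuclei that met all other conditions had 10 to 14.

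Genes outside the rule were used to check the name. The 20 genes of this list are typical of spiny projection neurons, such as Ppp1r1b (DARPP-32, an inhibitor of protein phosphatase 1), the transcription factors Foxp1, Bcl11b, Meis2 and Rarb, the olfactory-type G protein subunit Gnal and the adenylyl cyclase Adcy5. Over all members these genes held a median of 21.2 UMIs per 1000 in Normal and 23.6 in SAH, with 5th percentiles of 1.40 and 2.01. The same genes had a median of 2.15 and 2.27 per 1000 in other GABA nuclei (at least 3 UMIs of Gad1 and Gad2 together, not chosen by the rule), and 6.48 and 6.14 in nuclei with at least 3 UMIs of Slc17a7, the vesicular glutamate transporter of cortical excitatory neurons. The 95th percentile of the Slc17a7 nuclei was 9.66 in Normal and 9.07 in SAH.

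Values lay in separate ranges, and 10 Normal and 11 SAH nuclei went against the name. Their identity genes reached at most 1.92 UMIs per 1000 in Normal and 4.87 in SAH, and Ppp1r1b had no UMI in any of them. The other 57 Normal and 83 SAH nuclei had at least 7.62 and 8.25. Most of the low nuclei carried interneuron genes. All 10 Normal and 7 of 11 SAH nuclei had a UMI of Grik1, Sst or Sox6, whereas 4 SAH nuclei had none and held 5 to 24 UMIs of Meis2. The kainate receptor subunit Grik1 lay at 1500 CPM in these Normal nuclei against 38.2 CPM in the other Normal members, and at 1525 against 19.6 CPM in SAH. Somatostatin (Sst) lay at 1320 against 36.9 CPM in Normal and 372 against 6.54 CPM in SAH, and the interneuron transcription factor Sox6 at 988 against 35.5 and 716 against 33.7 CPM. Drd1, Drd2 and Adora2a had no UMI in the 10 Normal nuclei, and a UMI in 3, 2 and 1 of the 11 SAH nuclei. The line at 6 UMIs per 1000 that separates these 21 low-identity nuclei was drawn after their values were seen. They remain among the 161 members, and many of the counts or calls below that differ without them are also given for the 140 others. Of the 20 nuclei just inside the Pde10a threshold, 2 Normal and 5 SAH nuclei were of this kind.

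**Figure D1:**
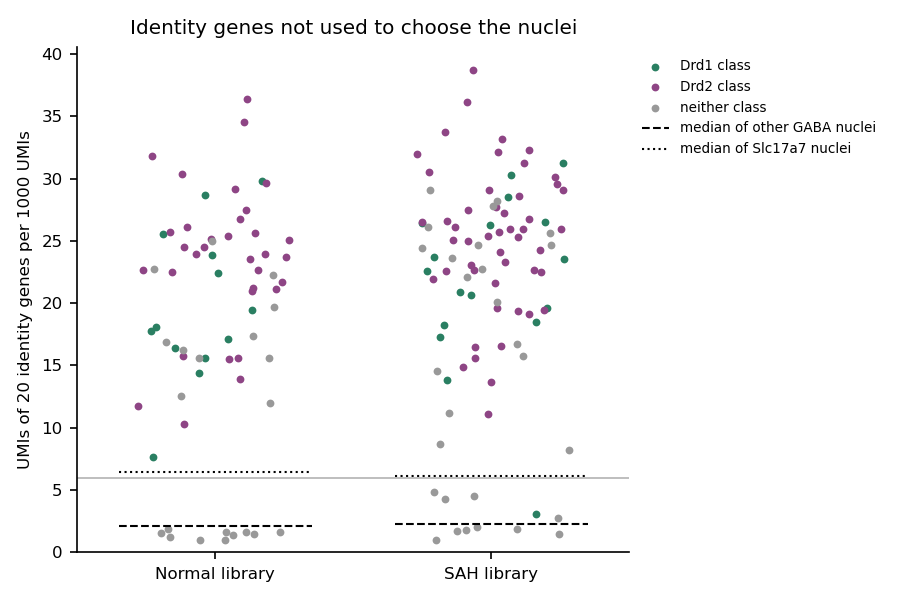
UMIs of the 20 identity genes per 1000 UMIs (vertical axis) in each of the 67 Normal and 94 SAH nuclei (points, spread sideways for legibility, coloured by receptor class). Dashed and dotted lines are the medians of other GABA nuclei and Slc17a7 nuclei of the same library, the grey line lies at 6, and 10 Normal and 11 SAH nuclei lie under it.

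Identity genes outside the rule were at like levels in both libraries. Foxp1 lay at 1547 CPM in Normal and 1783 in SAH, Meis2 at 1288 and 1504, Rarb at 1478 and 1368 and Ppp1r1b at 31.3 and 31.9. Phactr1, which regulates actin and protein phosphatase 1, lay at 7326 CPM in Normal and 9804 in SAH, a log2 ratio of SAH over Normal of 0.42 [0.38, 0.46]. It was present in 66 of 67 and 94 of 94 nuclei. Gng7, the G protein gamma subunit that partners Gnal, was the one identity gene past 1.5-fold, at 288 CPM in Normal and 183 in SAH (-0.66 [-0.92, -0.40]), and it was short of it without the caps (-0.54).

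Receptor classes were set by the receptors themselves. A nucleus of the Drd1 class had at least 2 UMIs of Drd1, and a nucleus of the Drd2 class at least 2 UMIs of Drd2 and Adora2a together. Normal held 13 nuclei of the Drd1 class, 33 of the Drd2 class, 0 of both and 21 of neither. SAH held 17, 49, 0 and 28. Without the low-identity nuclei these were 13, 33, 0 and 11 in Normal and 16, 49, 0 and 18 in SAH. No nucleus met both conditions, and 0 of 67 and 0 of 94 nuclei allow a share of up to 4.48% and 3.19% (3 counts of the total, not the exact binomial limit). This limits nuclei with such UMIs, not nuclei expressing both receptors, since Drd1 gave few UMIs per nucleus. Among nuclei of one class, the Drd1 class made up 28.3% [16.0, 43.5] in Normal and 25.8% [15.8, 38.0] in SAH, intervals that overlapped. Without the low-identity nuclei the SAH share was 24.6%.

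**Figure D2:**
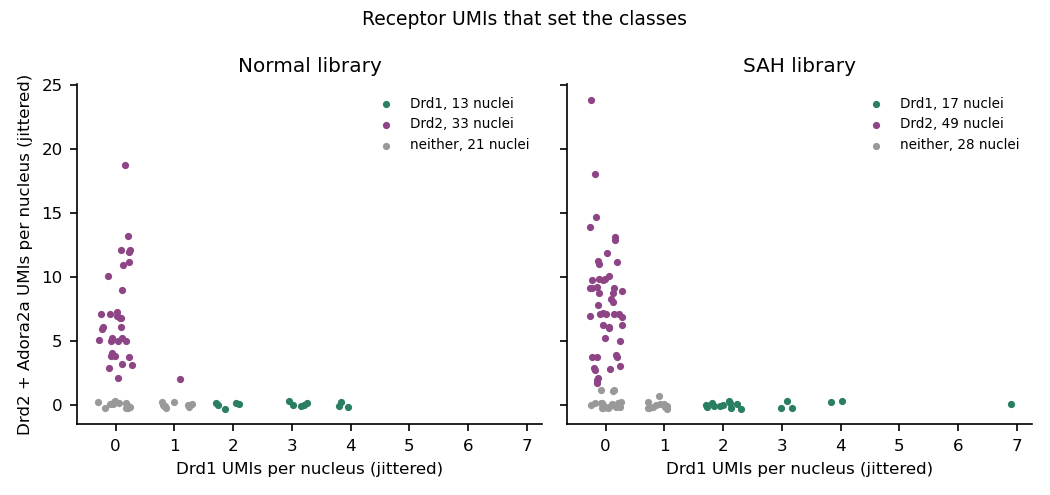
UMIs of Drd1 (horizontal axis) and of Drd2 and Adora2a together (vertical axis) in each nucleus of the Normal (left) and SAH (right) library, with points shifted at random by up to 0.3 for legibility. The classes lie along separate axes, with 13 Drd1 and 33 Drd2 nuclei in Normal and 17 and 49 in SAH.

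Those shares depend on how much RNA each receptor gene gave. The Drd1 gene spans 4523 bases (GRCm38, chr13:54051183-54055705, minus strand), Drd2 spans 67551 bases (chr9:49340627-49408177, plus strand) and Adora2a 17908 bases (chr10:75316877-75334784, plus strand). Intronic reads were counted, so the number of UMIs is not comparable between genes of such different length. Within the Drd1 class a nucleus held a median of 3 UMIs of Drd1 in Normal and 2 in SAH, with a highest value of 7. Within the Drd2 class a nucleus held a median of 5 UMIs of Drd2 in Normal and 7 in SAH, with a highest value of 20. Of the high-identity nuclei of neither class, 10 of 11 in Normal and 15 of 18 in SAH carried UMIs of the direct-pathway genes Tac1, Ebf1 or Foxp2 and none of Penk, whereas 0 and 1 carried Penk alone. When classes were set by Tac1, Ebf1 and Foxp2 against Penk, an alternative added after the data were seen, the direct kind made up 53.7% in Normal and 58.9% in SAH. Nuclei with at least 2 UMIs of both kinds were left out of these shares. Foxp2 was not confined to the direct kind, as 19 of 33 Normal and 37 of 49 SAH nuclei of the Drd2 class had a UMI of it. The shares can thus lie too high for the direct kind, and the part of Foxp2 in them was not tested.

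The receptor levels over all members were as follows. Drd1 lay at 50.8 CPM [37.3, 67.5] in Normal and 45.5 [34.5, 59.0] in SAH. Drd2 lay at 182 CPM [155, 211] in Normal and 280 [252, 311] in SAH, a log2 ratio of 0.63. Adora2a lay at 64.8 CPM [49.5, 83.4] in Normal and 39.1 [28.9, 51.7] in SAH, a log2 ratio of -0.73. Among receptors of the indirect pathway, Drd2 was thus higher and Adora2a lower in SAH, with levels whose intervals were apart for Drd2 and overlapped for Adora2a. Within the Drd2 class, which was chosen on their sum, Drd2 had a log2 ratio of 0.48 and Adora2a of -0.90. In nuclei with Mobp and St18, an oligodendrocyte profile that should lack these receptors, Drd1 had a UMI in 0.647% of Normal and 0.759% of SAH nuclei and Drd2 in 0.216% and 0.456%, at a median of 2921.5 and 2876 UMIs per nucleus.

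Promoter sequence is shown for Drd1 and Drd2, which set the classes, and for Tac1, a leading peptide gene of the direct pathway, as the bases just before the start in both RefSeq (GRCm38.p6) and GENCODE. Penk and Adora2a had no entry, and the stretch of Pdyn, which held no match, is not shown. Capitals mark matches, on either strand, to the GC box GGGCGG and to TGACG, the half-site bound by cyclic AMP response factors.
Drd1, chr13:54055706-54055855, minus strand: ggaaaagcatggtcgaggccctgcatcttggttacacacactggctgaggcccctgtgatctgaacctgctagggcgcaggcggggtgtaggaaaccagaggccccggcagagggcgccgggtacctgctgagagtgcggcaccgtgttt
Drd2, chr9:49340253-49340402, plus strand: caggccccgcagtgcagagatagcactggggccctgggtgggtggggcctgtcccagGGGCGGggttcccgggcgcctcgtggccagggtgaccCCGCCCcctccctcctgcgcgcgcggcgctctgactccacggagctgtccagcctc
Tac1, chr6:7554811-7554878, plus strand: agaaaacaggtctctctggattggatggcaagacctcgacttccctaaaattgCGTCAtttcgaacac
The stretch of Drd2 (150 bases) held 2 GC boxes and no half-site, that of Tac1 (68 bases) held 1 half-site and that of Drd1 (150 bases) neither. The whole RefSeq window of Tac1 held 2 half-sites and 1 GC box, but 182 of its 250 bases lie inside the GENCODE gene and are not shown. Among 32851 RefSeq windows of 250 bases before a start, 32.7% held the GC box and 17.8% the half-site, so such matches are common. These shares are for windows longer than the stretches shown, and the matches are descriptions of the letters only.

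Peptide genes followed the receptor classes, although the classes did not use them. Tac1 had a UMI in 13 of 13 Normal and 15 of 17 SAH nuclei of the Drd1 class, and in 3 of 33 and 3 of 49 of the Drd2 class. Penk had a UMI in 32 of 33 and 48 of 49 nuclei of the Drd2 class, and in 5 of 13 and 1 of 17 of the Drd1 class. Pdyn had a UMI in 5 of 13 and 4 of 17 nuclei of the Drd1 class, against 0 of 33 and 1 of 49. In oligodendrocyte-profile nuclei, the shares with a UMI were 3.66% in Normal and 1.59% in SAH for Tac1, and 1.51% and 1.21% for Penk. Median depth was 16630 and 13616 UMIs per nucleus in the Drd1 class and 12518 and 11463 in the Drd2 class.

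Across 1146 genes with at least 200 UMIs in the classes, 8 were more than 2-fold higher in the Drd1 class in both libraries (0.698%) and 11 in the Drd2 class (0.96%). Drd1, Drd2 and Adora2a, which set the classes, were left out. Without the low-identity nuclei 1134 genes were compared, with 8 higher in the Drd1 class and 13 in the Drd2 class. Past 2-fold within a single library, 24 genes were higher in the Drd1 class of Normal and 17 of SAH, and 30 and 32 were higher in the Drd2 class. The ratio had the same sign in both libraries for 642 of the 1146 genes. No test was made, because the libraries differ in condition and are the only separate samples.

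On the Drd1 side the leading gene was Lingo2, a membrane protein with leucine-rich repeats. It lay at 3848 CPM in the Drd1 class and 68.6 in the Drd2 class of Normal, and at 3241 and 363 CPM in SAH. The log2 ratios were 5.81 and 3.16, and 3.60 and 1.81 without the caps on markers of other classes. Foxp2, a transcription factor of the forkhead family, had log2 ratios of 1.90 in Normal and 1.19 in SAH. Reln, a secreted matrix protein, stood at 1.32 and 1.30, and the adhesion gene Cdh7 at 1.31 and 1.23. Fstl5 stood at 1.16 and 1.37 and the semaphorin gene Sema6d at 1.08 and 1.13. The other 2 genes past 2-fold each rested mainly on 1 nucleus in one library. The neuregulin receptor Erbb4 had ratios of 5.24 and 1.21, and 65.9% of its UMIs in the Normal Drd1 class came from 1 nucleus. The transporter Slc35f4 had ratios of 1.60 and 1.39, and 58.3% of its UMIs in the SAH Drd1 class came from 1 nucleus. Next in rank, and past 2-fold in at most 1 library, were Cntnap5c (2.73 and 0.90), Cdh9 (0.96 and 1.07), Prkca (0.86 and 1.08) and Galnt18 (0.78 and 1.34). Without the caps, Lingo2 and Foxp2 (2.22 and 1.37) were past 2-fold in both libraries, and Reln (0.73 and 1.05), Cdh7 (0.92 and 1.34), Fstl5 (1.25 and 0.80), Sema6d (1.20 and 0.56), Erbb4 (2.93 and 0.98) and Slc35f4 (0.87 and 0.71) were not.

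Penk led the Drd2 side. It lay at 90.1 CPM in the Drd1 class and 1281 in the Drd2 class of Normal, and at 68.4 and 710 CPM in SAH, log2 ratios of -3.83 and -3.38. A single nucleus gave 70.0% of the Penk UMIs of the Normal Drd1 class and all 15 of those in SAH. Nell1, a secreted glycoprotein, followed at -3.65 and -2.83. The netrin receptor Unc5d stood at -2.54 and -4.25, and 88.6% of its few Drd1-class UMIs in Normal came from 1 nucleus. The calcium-binding protein gene Necab1 stood at -2.91 and -1.86, but at -0.35 and -0.25 without the caps. Other genes higher in the Drd2 class included adenosine kinase (Adk, -1.51 and -2.36), the cyclic AMP phosphodiesterase Pde4b (-1.30 and -1.84), Fam155a (-1.26 and -1.79), the ubiquitin ligase March1 (-1.17 and -1.32), the Notch coactivator Maml3 (-1.04 and -1.63) and the cadherin Cdh12 (-1.01 and -1.09). Galnt17 followed at -1.53 and -0.96. Without the caps, Penk (-3.27 and -2.99), Unc5d (-1.27 and -2.85) and Adk (-1.64 and -1.88) were past 2-fold in both libraries. Nell1 then turned to 0.39 in Normal (-0.85 in SAH), Cdh12 to 0.19 in Normal (-1.03 in SAH) and Maml3 to 0.23 in SAH (-0.31 in Normal). Pde4b (-0.20 and -0.86), Fam155a (-0.21 and -0.74) and March1 (-1.76 and -0.94) were also no longer past 2-fold in both.

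**Figure D3:**
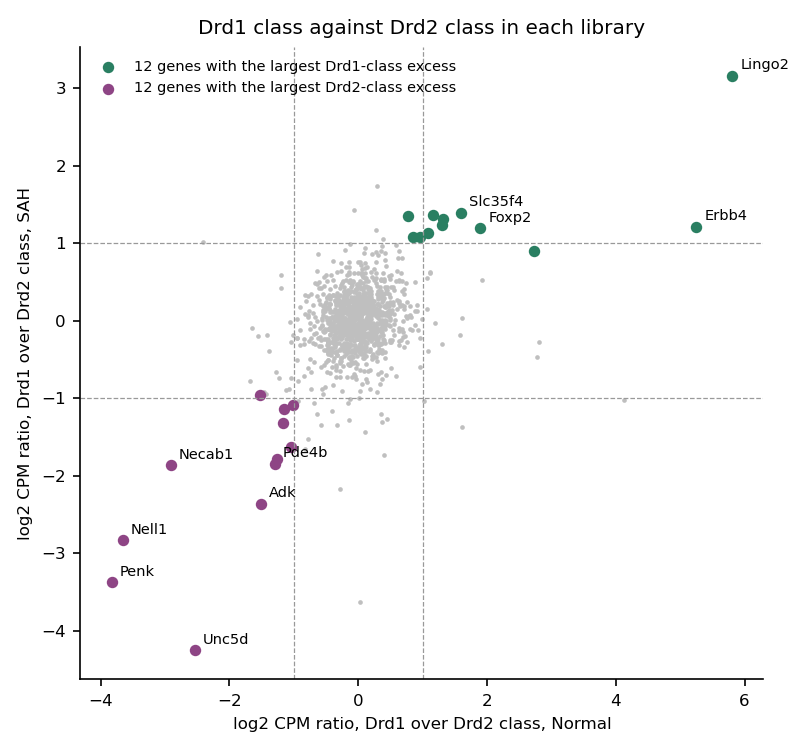
Log2 ratio of CPM of the Drd1 class over the Drd2 class in Normal (horizontal axis) and SAH (vertical axis) for 1146 genes, with dashed lines at 2-fold. Green and purple points are the 12 genes ranked highest on each side, led by Lingo2 at 5.81 and 3.16 and Penk at -3.83 and -3.38.

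Direct-pathway and indirect-pathway genes below 200 UMIs in the classes are given by their counts. Ebf1, a transcription factor of direct-pathway neurons, had 69 UMIs in the Drd1 class of Normal and 55 of SAH, and 0 in the Drd2 class of both. Zfp521, a zinc finger partner of Ebf1, had 19 and 11 against 0 and 0. Tac1 had 80 and 45 UMIs in the Drd1 class against 4 and 7 in the Drd2 class. The orphan receptor Gpr6, an indirect-pathway gene, had 33 and 26 UMIs in the Drd2 class and 0 and 0 in the Drd1 class. The kainate receptor subunit Grik3 had 65 and 104 UMIs in the Drd2 class and 2 and 11 in the Drd1 class.

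The comparison of SAH with Normal asks how striatal projection neurons differed 12 h after the haemorrhage. Among 1804 genes with at least 200 UMIs, 126 were more than 1.5-fold higher in SAH (6.98%) and 102 more than 1.5-fold lower (5.65%), and the median log2 ratio was -0.01. The counting interval lay wholly above 0 for 395 genes and wholly below it for 372. Of the 126 higher genes, 110 were higher in both receptor classes and 65 were past 1.5-fold in both. Of the 102 lower genes, 83 were lower in both and 44 past 1.5-fold in both. The classes are part of the same nuclei that gave these calls, so such agreement is partly built in and is not a separate check. Without the low-identity nuclei, 99 of the 126 and 86 of the 102 were still past 1.5-fold.

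A large difference lay at the abundant gene Cacnb2, which encodes a beta subunit of voltage-gated calcium channels (GRCm38, chr2:14603088-14987908, plus strand). Cacnb2 had 1765 UMIs in Normal, or 1907 CPM [1819, 1998], and 5105 UMIs in SAH, or 4076 CPM [3964, 4189]. This is a log2 ratio of 1.10 [1.02, 1.17], with 0.78 in the Drd1 class and 1.11 in the Drd2 class. A UMI was present in 63 of 67 Normal and 94 of 94 SAH nuclei. The median nucleus had 1551 CPM in Normal, with quartiles of 634 and 2795, and 3074 CPM in SAH, with quartiles of 1691 and 6680, so the ranges between quartiles overlapped. Across the alternative settings the ratio lay between 0.96 and 1.13. In other GABA nuclei Cacnb2 had a ratio of 0.33 and in Slc17a7 nuclei of 0.38, and whether the neuron types differ was not tested.

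Antisense transcripts inside Cacnb2 were among the 10 genes with the largest ratios that had the same direction in both classes. Gm10848 (chr2:14706834-14739722, minus strand) had 132 UMIs in Normal and 766 in SAH, a log2 ratio of 2.10 [1.83, 2.38]. It was seen in 41 of 67 Normal and 82 of 94 SAH nuclei. Gm13269 (chr2:14740372-14767024, minus strand) had 116 and 542 UMIs, a ratio of 1.79. Both lie wholly within the Cacnb2 gene on the opposite strand. Whether the counting used strand is not given in the sources used here, so reads of Cacnb2 and of these transcripts may not be told apart.

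Several other leading genes also overlap a larger gene. Gm42303 lies antisense within the phosphatase gene Ptprd and had 32 UMIs in Normal and 186 in SAH (2.10). AY036118 lies antisense within Gm42418, which overlaps ribosomal RNA sequence, and had 52 and 269 UMIs (1.93). Gm15680 had 44 and 217 UMIs (1.87), and 90129 of its bases lie antisense to A330008L17Rik (0.86) and 19259 overlap the cadherin gene Cdh8 (0.58) on the same strand. Within Fgf14, 1700024B18Rik had 57 and 241 UMIs (1.64), and within Herc1, Gm28379 had 40 and 163 (1.59). The host genes had ratios of 0.61 (Ptprd), -0.53 (Gm42418), 0.33 (Fgf14) and 0.09 (Herc1).

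Of the protein-coding genes with the largest ratios, Fkbp5 encodes a co-chaperone of the glucocorticoid receptor that glucocorticoids induce. Fkbp5 had 42 UMIs in 23 Normal nuclei and 178 UMIs in 66 SAH nuclei, or 45.4 CPM [32.7, 61.3] and 142 CPM [122, 165]. The log2 ratio was 1.65 [1.15, 2.17], with 0.56 in the Drd1 class and 1.49 in the Drd2 class, and it was 0.80 in other GABA nuclei and 1.07 in Slc17a7 nuclei. The integrin-like gene Itgbl1 had 53 and 235 UMIs (1.71), and 1.17 and 1.08 in the other neuron groups. Grm8, a presynaptic metabotropic glutamate receptor, had 151 and 592 UMIs (1.53 [1.27, 1.80]), with 2.58 in the Drd1 class and 1.03 in the Drd2 class, but the ratio was 0.44 without the caps on markers of other classes.

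Among the lower genes, Atp6v0b, which encodes a subunit of the vacuolar proton pump, had 195 UMIs in Normal and 85 in SAH (-1.63 [-2.02, -1.26]), and Atp6v0c, another subunit, had 228 and 149 (-1.05 [-1.36, -0.75]). Ptprn, a protein of dense-core vesicles, had 280 and 158 UMIs (-1.26). AC149090.1, on an unplaced scaffold, had 631 and 335 (-1.35). The splicing kinase Clk4 had 152 and 95 (-1.11) and the RNA-binding protein Pcbp2 139 and 87 (-1.11). Gapvd1, an endocytosis regulator, stood at -1.08, the matrix proteoglycan Spock2 at -1.05 and the noncoding RNA Gm32647 at -1.37. Kcnmb2, a channel subunit, stood at -1.12, and was seen in 12 Normal and 14 SAH nuclei. Without the low-identity nuclei Kcnmb2 stood at -2.56 and Gm32647 at -1.87. Without the caps on markers of other classes, Gapvd1 stood at -0.54, Gm32647 at -0.78 and Kcnmb2 at -0.31.

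Other neuron groups were lower at some of these genes and not at others. Atp6v0b had log2 ratios of -1.36 in other GABA nuclei and -1.35 in Slc17a7 nuclei, Ptprn of -1.03 and -1.38, Clk4 of -1.22 and -1.12, and AC149090.1 of -1.58 and -1.37. Kcnmb2 stood at 0.34 and -0.38 there, Gm32647 at -0.11 and -0.12, and Gapvd1 at -0.39 and -0.29. Gene length moved with the direction of the ratio. The median length was 194565 bases for the 126 higher genes, 64597 for the 102 lower genes and 140689 for all 1804, and the median ratio was 0.09 in genes longer than the median and -0.11 in the shorter ones. The part of gene length in these ratios was not tested.

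**Figure D4:**
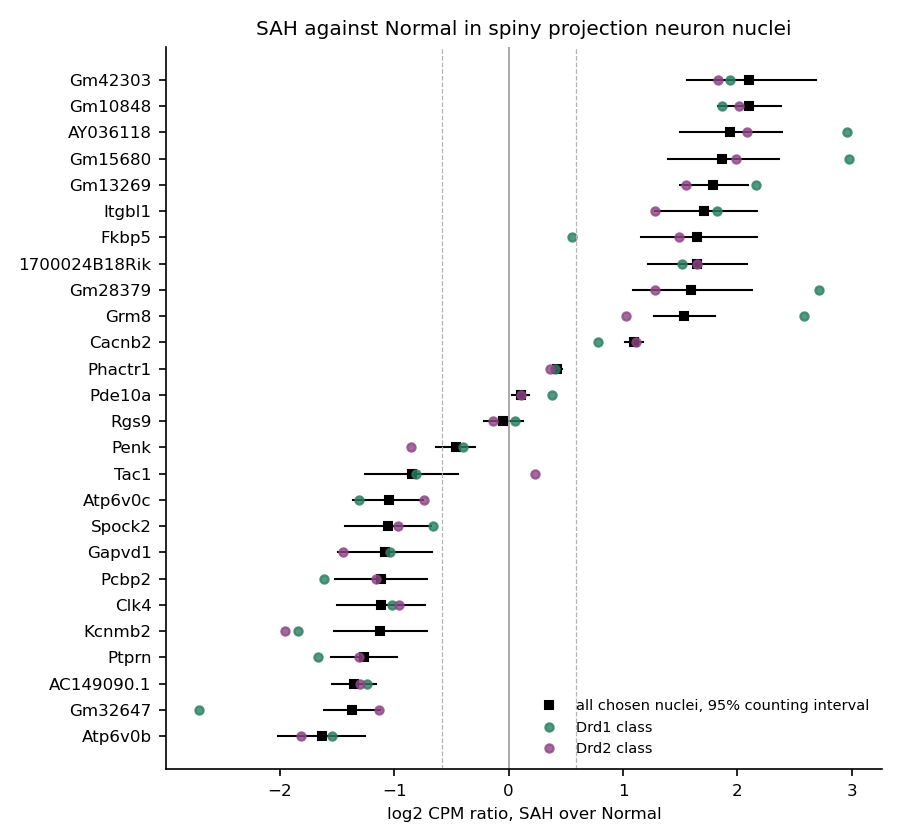
Log2 ratio of CPM, SAH over Normal, for the 10 highest and 10 lowest genes with the same direction in both classes and for Cacnb2 and 5 genes of spiny projection neurons. Squares are all 161 nuclei with 95% counting intervals, green and purple circles the Drd1 and Drd2 classes, and dashed lines lie at 1.5-fold. Cacnb2 lies at 1.10 and Penk at -0.46.

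Gene lists were counted over members with at least 50 UMIs in both libraries together. Of all 5421 such genes, 8.71% were more than 1.5-fold higher in SAH and 15.2% more than 1.5-fold lower, with a median log2 ratio of -0.11, and each list is set beside those values. Over all lists 239 members were counted, with 19 higher and 48 lower, and 19 and 26 when ratios were centred on genes of like length. Without the low-identity nuclei 226 members had 50 UMIs, with 15 higher and 45 lower. Counts of single lists without those nuclei are over the same members as with them. Of the 20 identity genes, 19 had 50 UMIs, with 0 higher, 1 lower (Gng7) and a median of -0.04.

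Of 10 neuropeptide genes 5 were counted, with 0 higher, 3 lower (Tac1, Npy and Sst) and a median of -0.85. Tac1 (chr6:7554879-7565834, plus strand) had 121 UMIs in Normal and 91 in SAH, or 131 and 72.6 CPM, a log2 ratio of -0.85 [-1.26, -0.44]. Without the caps Tac1 (-0.49) and Npy (-0.30) were short of 1.5-fold. In the Drd1 class Tac1 lay at 360 and 205 CPM. Penk (chr4:4133531-4138819, minus strand) had 563 and 553 UMIs, or 608 and 441 CPM, a ratio of -0.46 [-0.63, -0.29] that fell short of 1.5-fold. In the Drd2 class Penk lay at 1281 and 710 CPM, a ratio of -0.85. Npy and Sst were carried mainly by the low-identity nuclei, with Sst at 247 UMIs in 15 Normal and 75 UMIs in 10 SAH nuclei. Penk spans 5289 bases and Tac1 10956, and the Penk ratio was -0.29 when ratios were centred on genes of like length.

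Lists of the pathways and compartments were short. Of 10 direct-pathway genes 4 were counted, with 0 higher, 2 lower (Tac1 and Zfp521) and a median of -0.70, and Sfxn1 was also lower (-0.92) without the low-identity nuclei. Of 8 indirect-pathway genes 4 were counted, with 0 higher, 1 lower (Gpr6) and a median of -0.33. Of 7 striosome genes 4 were counted and of 6 matrix genes 5, with 0 past 1.5-fold in either list and medians of -0.23 and -0.08. The mu opioid receptor Oprm1, a striosome marker, had 61 and 99 UMIs (0.26), and Epha4, a matrix marker, 328 and 353 (-0.33). Of 5 genes of eccentric spiny projection neurons 2 were counted and both were lower, with Otof at 59 and 26 UMIs (-1.62, and -0.61 without the caps) and Col11a1 at 33 and 25 (-0.84). Of 4 ventromedial genes 3 were counted and 1 was higher, Crym at 33 and 70 UMIs (0.65), and of 2 dorsolateral genes 1 was higher, the cannabinoid receptor Cnr1 at 75 and 158 (0.64 [0.23, 1.05]). Neither was past 1.5-fold without the low-identity nuclei (Crym 0.57, Cnr1 0.53) or without the caps (0.57 and 0.03). The ventromedial gene Nnat was lower without the low-identity nuclei (-0.72) and without the caps (-0.66).

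The machinery of dopamine and cyclic AMP signalling was mostly within 1.5-fold. Of 39 genes 32 were counted, with 1 higher, 4 lower and a median of -0.14. The G protein subunit Gnal lay at 632 CPM in Normal and 591 in SAH, and Adcy5 at 361 and 394 CPM. The higher gene was Rgs7, a regulator of G protein signalling, at 490.5 and 782 CPM (0.67 [0.51, 0.84]). The lower genes were Gng7, the protein kinase A subunit Prkar1a (58.3 and 38.3 CPM, -0.61), the phosphodiesterase Pde4a (107 and 56.7 CPM, -0.92) and Rgs8 (37.8 and 22.3 CPM, -0.76). Pde4b, another phosphodiesterase, lay at 723 and 1082 CPM (0.58 [0.45, 0.72]), just short of 1.5-fold. In the 140 other nuclei 3 genes were higher and 5 lower, with the cyclases Adcy1 (0.64) and Adcy2 (1.37) joining the higher and Prkar1b (-0.63) the lower. Without the caps Rgs7 (0.40), Gng7 (-0.54) and Rgs8 (-0.04) were short of 1.5-fold.

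Glutamate and GABA genes were also mostly within 1.5-fold. Of 24 glutamate receptor genes 21 were counted, with 1 higher (Grm8), 1 lower and a median of 0.00. The lower gene was the presynaptic receptor Grm4, with 39 and 30 UMIs (-0.82). Grm5, the postsynaptic receptor that is typical of these neurons, lay at 4132 CPM in Normal and 3571 in SAH (-0.21 [-0.27, -0.15]), and the AMPA receptor subunit Gria1 at 1638 and 1955 CPM (0.26 [0.16, 0.35]). The NMDA receptor subunit Grin2a lay at 909 and 1304 CPM (0.52 [0.40, 0.64]). With low-identity nuclei left out, 3 glutamate receptor genes were lower, Grm4 with Grin3a (-1.20) and Grik1 (-0.96). All 18 GABA genes were counted, with 1 higher, 3 lower and a median of -0.07. The higher gene was the receptor subunit Gabrb2, at 283 and 437 CPM (0.63 [0.41, 0.85]). The lower genes included the extrasynaptic subunit Gabrd (85.4 and 46.3 CPM, -0.88) and the vesicular transporter Slc32a1 (67.0 and 43.1 CPM, -0.64). Among the 140 others 4 were lower, Gabrg1 (-1.06) being added, and without the caps Gabrb2 (0.37) and Slc32a1 (-0.53) were short of 1.5-fold.

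Ion channel genes lay on both sides. Of 58 genes 51 were counted, with 6 higher, 9 lower and a median of 0.04. Besides Cacnb2, the higher genes were the potassium channels Kcnh7 (468 and 751 CPM, 0.68 [0.52, 0.85]), Kcnn2 (129 and 203 CPM, 0.66) and Kcnh5 (103 and 158 CPM, 0.62), the sodium channel subunit Scn3b (48.6 and 79.8 CPM, 0.72) and Kcnj6, which had 12 UMIs in 7 Normal nuclei and 65 in 17 SAH nuclei (2.00). Kcnj6 stood at -0.03 without the caps, so its difference was lost there. The lower genes included the inward rectifier Kcnj4, with 37 and 24 UMIs (-1.06), Kcnt1 with 101 and 74 (-0.89), Kcnc1 with 60 and 42 (-0.95), Kcna2 (-0.81), Kcnh4 (-0.66), Scn2b (-0.61) and the T-type calcium channel Cacna1h (-0.69). Kcnc2 (-1.17) and Kcnip1 (-0.70) were lower too, and both are genes of the low-identity nuclei. Without those nuclei 6 genes were higher and 9 lower, but Kcnn2 (0.44), Kcnip1 (-0.30) and Scn2b (-0.49) were not past 1.5-fold and Kcnj3 (0.83), Kcnip2 (-0.65) and Cacna2d2 (-0.80) were. Kcnc2 stood at -0.14 without the caps. The A-type potassium channel Kcnd2, an abundant channel gene here, lay at 5536 and 5703 CPM (0.04 [-0.01, 0.09]).

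Among 26 genes of other receptors 19 were counted, with 3 higher, 3 lower and a median of 0.22, which was -0.14 for the same 19 genes without the low-identity nuclei. The higher genes were Cnr1, the serotonin receptor Htr1b (23 and 55 UMIs, 0.82) and Tacr1 (9 and 52 UMIs, 2.09). Tacr1, the substance P receptor, had its UMIs in 2 Normal and 6 SAH nuclei and stood at -1.66 without the low-identity nuclei. The lower genes were the serotonin receptor Htr1f, with 436 and 297 UMIs in 36 and 56 nuclei (-0.99 [-1.21, -0.77]), the adrenergic receptor Adra1a (30 and 22 UMIs, -0.88) and Gpr6 (33 and 27 UMIs, -0.73). Leaving out the low-identity nuclei, 1 gene was higher (Htr1b) and 5 lower, Chrm2 (-0.79) and Tacr1 being added. Without the caps Adra1a stood at 0.49.

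Immediate early genes were scarce. The 25 immediate early genes together had 148 UMIs in Normal and 109 in SAH, or 160 and 87.0 CPM, and 0 of them reached 50 UMIs. Nr4a1, the most abundant, had 27 and 15 UMIs, Egr1 had 25 and 11, Npas4 21 and 10 and Arc 13 and 4, and Klf2 and Atf3 had none in either library. Of 16 late activity genes 7 were counted, with 1 higher, 2 lower and a median of -0.10. The higher gene was Inhba, which encodes an activin subunit, with 31 UMIs in 22 Normal nuclei and 167 in 66 SAH nuclei (1.99 [1.43, 2.60]). It stood at 1.82 in the Drd1 class and 1.63 in the Drd2 class, and at 1.37 in other GABA nuclei and 1.12 in Slc17a7 nuclei. The lower genes were the secretory granule genes Vgf (75 and 27 UMIs, -1.91) and Scg2 (136 and 111 UMIs, -0.73, and -0.57 without the low-identity nuclei).

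Of 21 glucocorticoid-responsive genes 6 were counted, with 2 higher, 0 lower and a median of -0.06. The higher genes were Fkbp5 and the transcription factor Zbtb16, with 17 and 53 UMIs (1.20 [0.39, 2.09]). Sgk1, a kinase that glucocorticoids also induce, had 274 and 315 UMIs (-0.24). Of 18 circadian genes 11 were counted, with 0 higher, 2 lower (Per2 with 45 and 27 UMIs, -1.17, and Tef with 79 and 53, -1.01) and a median of -0.02.

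Of 15 heat shock genes 7 were counted, with 0 higher, 4 lower (Hspa5, Hsp90aa1, Hsp90ab1 and Hsph1) and a median of -0.63. Hspa5, the chaperone of the endoplasmic reticulum, had 98 and 58 UMIs (-1.19 [-1.69, -0.71]), and Hsp90ab1 75 and 38 (-1.42). Hspa1a and Hspb1 had no UMI in either library. Of 22 hypoxia genes 9 were counted, with 0 higher, 3 lower (Pfkfb3, Gapdh and Hif1a) and a median of -0.24, but Pfkfb3 (-0.56) and Hif1a (-0.30) were short of 1.5-fold without the caps. Of 15 genes of splicing and temperature response 13 were counted, with 0 higher, 8 lower (Rbm3, Srsf1, Srsf2, Srsf5, Srsf7, Clk1, Clk4 and Tra2a) and a median of -0.61. Rbm3, the cold-inducible RNA-binding protein, had 39 and 33 UMIs (-0.68 [-1.39, 0.03]), and the splicing factor Srsf7 had 137 and 96 (-0.95). Without the low-identity nuclei, 3 heat shock genes (not Hsp90aa1, -0.49) and 7 splicing genes were lower, the latter without Rbm3 (-0.40) and Clk1 (-0.58) and with Son (-0.60). Centred on genes of like length, the medians of these 3 lists were -0.30, -0.05 and -0.27. Hsp90ab1 stood at -1.32 in other GABA nuclei and -1.18 in Slc17a7 nuclei, and Srsf7 at -0.84 and -0.79.

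**Figure D5:**
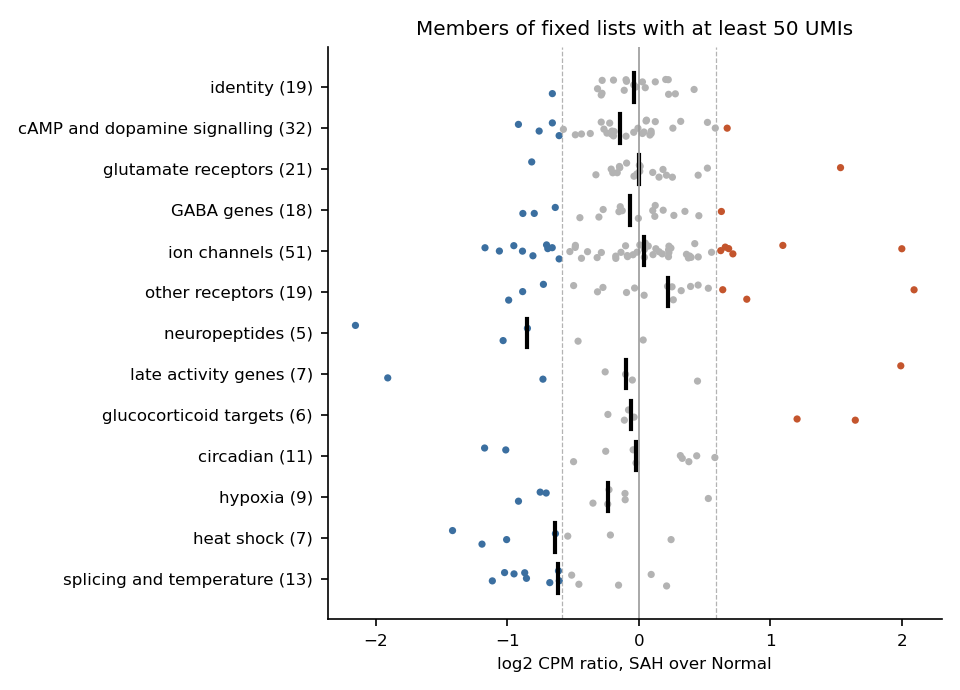
Log2 ratio of CPM, SAH over Normal, for each list member with at least 50 UMIs (points, number of members in brackets), with red and blue points past 1.5-fold higher and lower, black bars at the list medians and dashed lines at 1.5-fold. The medians of the heat shock and splicing lists lie at -0.63 and -0.61 and those of the identity and glutamate receptor lists at -0.04 and 0.00.

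Nuclear noncoding RNAs and the prosaposin genes completed the lists. Of 7 noncoding RNAs 6 were counted, with 0 past 1.5-fold and a median of -0.12. Malat1 lay at 56789 CPM in Normal and 42511 in SAH (-0.42 [-0.44, -0.40]), with -0.51 in other GABA nuclei and -0.67 in Slc17a7 nuclei. Of the 5 genes of prosaposin and its partners 2 were counted, with 0 past 1.5-fold and a median of -0.10. Psap, the precursor of the saposins, lay at 159 and 114 CPM (-0.48 [-0.82, -0.13]), and its receptor genes Gpr37 and Gpr37l1 had 2 and 4 and 1 and 0 UMIs.

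Markers of other cell types were low in the chosen nuclei, partly because the rule capped some of them. The 10 oligodendrocyte markers together lay at 201 CPM in Normal and 155 in SAH. The 9 microglial markers lay at 72.4 and 113 CPM, with P2ry12 the most abundant at 31 and 83 UMIs (0.98), while Tmem119 had none in either library. P2ry12 lies within Med12l on the opposite strand, and Med12l stood at -0.08. The 6 astrocyte markers lay at 63.7 and 39.9 CPM, with Slc1a2 the most abundant (50 and 43 UMIs, -0.65) and Gfap at 0. The 3 endothelial markers Cldn5, Flt1 and Pecam1 had no UMI in either library, and the 4 haemoglobin genes had 6 and 6 UMIs.

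The 10 interneuron markers lay at 590 CPM in Normal and 335 in SAH, with 2 higher (Nos1 and Adarb2) and 3 lower (Sst, Npy and Sox6). Without the low-identity nuclei they lay at 142 and 115 CPM, with 1 higher (Adarb2) and 3 lower (Sst, Npy and Nos1), and Sox6 stood at -0.08. Sox6 stood at 0.13 without the caps. Adarb2, which the rule caps, had 14 UMIs in 10 Normal and 61 in 31 SAH nuclei (1.69, and 0.28 without the caps). The 4 excitatory markers lay at 17.3 and 47.1 CPM. Tafa1, a gene of the Slc17a7 nuclei, was also higher in SAH, at 35 UMIs in Normal and 349 in SAH (2.88), and 5 SAH nuclei held 85.7% of its SAH UMIs. The part of these nuclei in the other ratios was not tested, apart from the removal of the 21 low-identity nuclei and of likely doublets.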

How the data were processed

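The members and gene lists were chosen with earlier results of these data known. The authors deposited UMI counts per gene and nucleus for 2 10x libraries, made with Cell Ranger (version 6.1.2 in the file headers, 5.0.0 in the submitters' processing notes) on the mouse reference GRCm38, with intronic reads counted. Counts were summed over nuclei of a group and given as CPM, and 32285 genes were read. Ratios are log2 of CPM, and a count of 0 was set to 3 counts, which makes the ratio a bound. With 1 library per condition no test was possible and none was run, and a gene was counted as higher or lower past 1.5-fold (SAH against Normal, at least 200 UMIs, or 50 for lists) or past 2-fold in both libraries (receptor classes). Intervals cover counting error only.

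Named genes were the markers of the rule, the 10 highest and 10 lowest ratios with the same direction in both classes, the 12 leading genes of each class, and in each list up to 4 members with most UMIs, up to 4 with the largest ratio and those counted. Tafa1 and Med12l were named after their values were seen. Doublets were limited by the caps of the rule, and Scrublet removal was an alternative, which took out 9.77% of Normal and 14.6% of SAH nuclei (4 and 7 members). Gene positions came from GENCODE on GRCm38. Computation used scanpy 1.11.5, scipy 1.17.1 and numpy 2.4.6 under Python 3.11.15, with pandas 2.3.3 and matplotlib 3.10.9. The intervals, the 1.5-fold calls and the centring on length were tested on simulated data, with summed counts per gene and no spread between nuclei. The choice of nuclei, the classes, the caps, thinning and doublet removal were not part of that simulation. Alternatives were other Pde10a minimums, no caps, tighter limits, other class minimums, nuclei thinned to 5000 UMIs, equal weights, centring and other gene minimums. Added after seeing the data were leaving out low-identity nuclei, centring on the 500 genes nearest in length, and classes by Tac1, Ebf1 and Foxp2 against Penk. Results of a few genes are not reported here.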

Additional observations from a re-analysis of the deposited data

Results flagged for a closer look

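In 7 of the named genes SAH was more than 1.5-fold higher than Normal in one receptor class and more than 1.5-fold lower in the other, with both counting intervals apart from 0. Of the 1804 genes compared, 38 (2.11%) were past 1.5-fold in opposite directions, but that count set no condition on the intervals. It also left out list genes under the UMI minimum of that comparison, such as Tacr1. The 7 genes therefore cannot be read against that share. Erbb4 and Cntnap5c were named for their class ratios. Values below are log2 ratios of SAH over Normal. The difference between classes was not tested, since each class had 1 library per condition, and most of these genes rested on few UMIs. Erbb4 stood at -1.46 in the Drd1 class (618 UMIs in Normal and 222 in SAH) and 2.57 in the Drd2 class (30 and 266). A single nucleus held 65.9% of the 618 UMIs. Cntnap5c, a contactin-associated protein gene, stood at -1.02 (144 and 70 UMIs) and 0.80 (40 and 104). A single nucleus held 51.4% of its 144 UMIs. Npas2, a clock transcription factor, stood at -0.64 (107 and 68 UMIs) and 0.67 (131 and 310).

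The other 4 are interneuron or peptide genes. Tacr1 stood at 3.08 in the Drd1 class (0 and 25 UMIs, a bound) and -2.75 in the Drd2 class (9 and 2). Npy, neuropeptide Y, stood at 3.02 (2 and 16 UMIs) and -2.58 (16 and 4). Sst stood at 1.60 (0 and 9 UMIs, a bound) and -3.01 (27 and 5). Nos1, neuronal nitric oxide synthase, stood at 5.41 (1 and 42 UMIs) and -2.16 (9 and 0, a bound). All 42 UMIs of Nos1 lay in 1 low-identity SAH nucleus of the Drd1 class, and all 9 in 1 Normal nucleus of the Drd2 class. The same SAH nucleus also held 8 of the 9 Sst UMIs (88.9%) of its class. The same Normal nucleus held 18 of the 27 Sst UMIs of the Drd2 class, so Nos1 and Sst rested largely on 1 nucleus per library. Single nuclei also held all 25 UMIs of Tacr1 and 93.8% of the 16 of Npy in the SAH Drd1 class. Without the low-identity nuclei, Nos1 over all members stood at -2.95 and Tacr1 at -1.66.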

How the results depend on the processing

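No paired analysis was possible because each condition had 1 library. Of 2537 alternative values over 16 settings, those of counts and shares were classed as close to the reported ones in 74 cases and as moved in 28. Of the 2435 values of genes and lists, 2229 were classed as close, 192 as moved and 14 as reversed. These classes did not count every change of sign as reversed. Without caps the median of the interneuron markers went from -0.63 to 0.13, that of the ventromedial genes from 0.30 to -0.29 and the ratio of Ptprm from -0.20 to 0.19. Centred on genes of like length, the median of the noncoding RNAs went from -0.12 to 0.16. With at least 25 Pde10a UMIs the share of chosen nuclei was 0.429% in Normal and 0.497% in SAH, and without caps 1.03% and 0.877%. The Drd1 share was 53.7% and 58.9% with classes by Tac1, Ebf1 and Foxp2 against Penk, and in SAH 11.5% with at least 3 receptor UMIs and 8.33% after thinning. Genes higher in SAH numbered 37 after thinning, 472 at a minimum of 50 UMIs and 48 at 500, and genes lower 16, 822 and 20, and 175 without caps, as the number of genes tested also differed. Genes higher in the Drd1 class numbered 3 with at least 3 receptor UMIs, 3 after thinning, 24 at 50 UMIs and 3 at 500, and in the Drd2 class 5 without caps, 3 after thinning, 38 at 50 UMIs and 6 at 500. List members higher (19 of 239) numbered 7 after thinning and 9 at a minimum of 200 UMIs, and lower (48) 19 and 14, and 26 when centred on genes of like length. The values classed as reversed were as follows, and the cause was not tested. With at least 3 receptor UMIs, the SAH class ratio was -0.045 for Slc35f4 and -0.18 for Erbb4. Without caps, the class ratio was 0.39 for Nell1 and 0.19 for Cdh12 in Normal and 0.23 for Maml3 in SAH, and the SAH over Normal ratio was 0.49 for Adra1a, -0.032 for Kcnj6 and 0.13 for Sox6. That ratio was 0.28 for Grm4 after thinning, 0.14 for Adra1a and -0.055 for Nos1 with at least 25 Pde10a UMIs, 1.09 for Slc1a2 after Scrublet removal, and -1.66 for Tacr1 and -2.95 for Nos1 without the low-identity nuclei. Other calls of named genes that ended, beside those given with the results, were Cnr1 (0.46), Gabrb2 (0.54), Adra1a (-0.30), Slc1a2 (-0.25) and Sox6 (-0.39) with at least 10 Pde10a UMIs, and Cnr1 (0.41), Htr1b (0.32), Hif1a (-0.40) and Srsf5 (-0.48) with at least 25. After thinning they were Crym (0.36), Rgs7 (0.53), Rgs8 (-0.12), Gabrb2 (0.51), Adra1a (-0.18), Scg2 (-0.31), P2ry12 (0.08) and Sox6 (-0.53), and after Scrublet removal Kcnmb2 (-0.57), Col11a1 (-0.43), Rgs8 (-0.57) and Slc32a1 (-0.58). With nuclei weighing equally they were Cnr1 (0.38), Rgs7 (0.51), Adra1a (-0.44), Hsp90aa1 (-0.46), Pfkfb3 (-0.57), Srsf5 (-0.58) and Sox6 (-0.54). Centred on genes of like length they were Gng7 (-0.57), Gpr6 (-0.55), Rgs7 (0.57), Slc32a1 (-0.46), Scg2 (-0.56), Hsp90aa1 (-0.47), Hif1a (-0.58) and Srsf5 (-0.43). Depth limits what 67 and 94 nuclei can show for genes of few UMIs.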
